A study of Mus musculus with 10 samples.

Results

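The circadian clock genes were followed in the lungs of female C57Bl/6 mice fed a fish oil diet (FO) or a coconut oil diet (CO). The 10 genes are core clock and clock output genes taken by symbol: Arntl, Clock, Per1, Per2, Per3, Nr1d1, Nr1d2, Dbp, Tef and Bhlhe40. All 10 symbols were among the 24059 in the count table, 9 had a read in at least 1 mouse, and 3 (Clock, Nr1d2 and Bhlhe40) passed the filter on low counts that left 2438 genes for testing. The data were raw numbers of single-end RNA-seq reads per gene from 5 FO and 5 CO mice, 1 library a mouse. Both diets were semipurified and high in fat (19% fat and 0.2% cholesterol by weight in the methods of the study) and were fed for at least 8 weeks. FO held menhaden fish oil and corn oil, and CO held coconut, olive and corn oil. The diet composition listed in the supplement of the study gives less cholesterol in FO than in CO. The mice were 14 weeks old at collection, after pulmonary function testing, and the lungs were flushed with PBS. No group received a standard diet, and the time of day at which the lungs were taken is not given in the sources used here.

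The clock is a transcription loop that runs in nearly every cell. CLOCK and BMAL1 (the protein of Arntl) bind E-box elements as a pair and switch on the Per, Cry and Nr1d genes, as well as Dbp and the DEC gene Bhlhe40. PER and CRY proteins then inhibit the pair, while REV-ERB proteins (Nr1d1 and Nr1d2) repress Arntl through elements they share with the ROR activators. DBP and TEF carry the rhythm to output genes through D-box elements. Because most of these transcripts rise and fall over the day, the level of each one at a single collection also depends on the hour, in lung as in other tissues.

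Matches to some elements of the loop lay in the sequence before the start sites of some members. RefSeq (GRCm38.p6, the build that mm10 names) gave 13 start windows for 8 of the 10 members, with none for Per2 and Bhlhe40 in the table used. The 250 bases before each start were searched on both strands for an E-box (CACGTG), its E-prime form (CACGTT), D-boxes (TTATGNAA or TTACGNAA), a ROR element (NTAGGTCA) and a CRE (TGACGTCA). Per1 held an E-box and a D-box in the first of its 2 windows, Per3 held 2 D-boxes, Nr1d1 held an E-prime box, and Tef held an E-box before each of its 2 starts. The window of Per1 with matches begins at 69098699, inside the span of the gene (69095108 to 69109965). The other Per1 window, those of Clock and Arntl, and the Tef window from 81811164 also lie inside their genes. Those of Per3 and Dbp overlap the gene in part, and the windows of Arntl overlap each other. For 12 of the 13 windows, bases past the start were found in a transcript of the gene. No match to these letters was found in the windows of Clock, Arntl, Dbp and Nr1d2, and the ROR element and the CRE were found in no window of any member. Among all 32851 start windows of the same length, 6.02% held the E-box, 3.85% the E-prime box, 3.07% and 0.536% the D-box forms, 2.22% the ROR element and 1.55% the CRE. The windows of the 3 members that carry matches and had reads are shown from 250 to 11 bases before the start, 5′ to 3′ on the strand of the gene, with the matches in capitals.
Per1 (plus strand, chr11:69098699-69098938): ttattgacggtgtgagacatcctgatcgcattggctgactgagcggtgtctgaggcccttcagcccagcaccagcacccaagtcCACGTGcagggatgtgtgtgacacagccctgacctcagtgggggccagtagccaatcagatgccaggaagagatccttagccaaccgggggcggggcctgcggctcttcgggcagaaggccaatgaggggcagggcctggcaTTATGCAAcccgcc
Per3 (minus strand, chr4:151044676-151044915): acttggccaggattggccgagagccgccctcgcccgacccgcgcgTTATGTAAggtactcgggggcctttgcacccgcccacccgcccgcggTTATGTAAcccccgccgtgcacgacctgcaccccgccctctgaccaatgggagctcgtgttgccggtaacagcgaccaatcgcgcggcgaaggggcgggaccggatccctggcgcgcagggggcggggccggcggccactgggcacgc
Nr1d1 (minus strand, chr11:98775388-98775627): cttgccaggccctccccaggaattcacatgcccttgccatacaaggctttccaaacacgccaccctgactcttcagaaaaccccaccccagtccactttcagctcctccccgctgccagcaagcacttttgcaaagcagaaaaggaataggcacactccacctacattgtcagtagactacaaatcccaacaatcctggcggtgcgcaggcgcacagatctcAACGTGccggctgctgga
A match is a description of the sequence, and binding was not measured here.

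Depth set what could be seen of these genes. Counts per mouse ranged from 229766 to 1124963, of which Rn45s, the ribosomal RNA precursor, took 21.8% to 87.0%, and what was left for all remaining genes was least in CO mouse 1 (45177 counts) and most in FO mouse 2 (473254). The smallest signal was set at 3 counts a mouse, which stood for 2.29 CPM in FO mouse 2 and 19.9 CPM in CO mouse 1. Levels are in CPM, the counts of a gene scaled to a common library size after TMM normalization by edgeR. Lung identity was clear from the lung cell markers, of which 11 of 12 had reads (Aqp5 had none), with summed levels of 2931 to 4193 CPM in FO and 2390 to 4048 CPM in CO. All 8 heart muscle markers also had reads, from 58.9 to 241.5 CPM in FO and from 26.6 to 166.7 CPM in CO. In the fit of all genes with any count, 2 of the 8, Tnnt2 and Tnni3, were higher in FO at an unadjusted p-value under 0.05, where 4.15% of 14161 genes passed it. Their log2 fold changes were 1.24 and 1.39, with edgeR adjusted p = 0.905 for both. The two-sided exact permutation p was 0.357 for Tnnt2, where 1 mouse held 66 of the 99 FO counts, and 0.024 for Tnni3. Of the 7 erythroid markers only Alas2 had reads, with 53.8 ± 10.1 CPM in FO and 32.8 ± 31.9 CPM in CO (SD, n = 5), and the 6 globin genes were at 0 in every mouse. In the fit of all genes with any count Alas2 was called higher in FO (log2 fold change 0.99), while in the filtered fit it was not called (0.97, 95% interval -0.27 to 2.20). Malat1, a nuclear RNA, was high in FO mouse 2 (8.53% of counts other than Rn45s) and in CO mouse 5 (6.15%), while no other mouse exceeded 1.05%. The part of these differences between libraries in the results was not tested.

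Clock, which encodes the partner of BMAL1, lies on chromosome 5 from 76209868 to 76305603 and was read in every mouse. FO mice 1 to 5 had 29, 48, 4, 26 and 11 counts, or 33.4, 36.7, 25.8, 32.1 and 36 CPM. CO mice 1 to 5 had 4, 9, 15, 31 and 30 counts, or 26.6, 47.9, 32.9, 32.5 and 39.4 CPM. The groups overlapped, the lowest level being in FO mouse 3 and the second lowest and the highest in CO. The means were 32.8 ± 4.33 CPM in FO and 35.9 ± 8.13 CPM in CO (SD, n = 5 mice each). The log2 fold change of FO against CO was -0.09 (standard error 0.27, 95% interval -0.65 to 0.47, edgeR adjusted p = 0.998). The two-sided exact permutation p was 0.548, where 5 mice against 5 allow no p below 0.0079.

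Arntl, the gene of BMAL1, on chromosome 7 from 113178471 to 113314126, was at or near 0. In total 4 reads were counted: 1 in FO mouse 1, 1 in CO mouse 3 and 2 in CO mouse 5. All mice were at or under 3 counts, so no fold change is given. Npas2, which can take the place of CLOCK, had no reads, and Arntl2, the paralog of Arntl, had 2 reads, both in CO mouse 4. Of Clock, Arntl, Npas2 and Arntl2, only Clock was above 3 counts in any of these libraries.

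**Figure D1:**
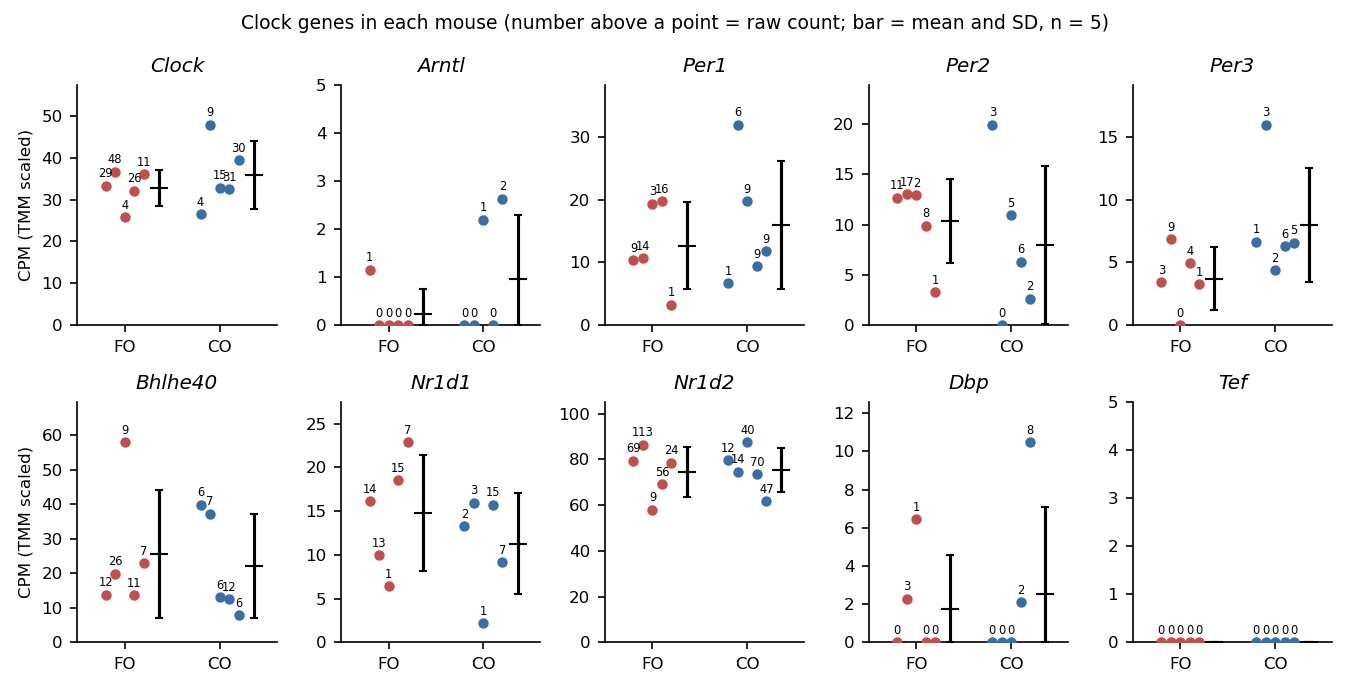
Level of each clock gene in every mouse on a linear axis (CPM after TMM scaling), with FO mice 1 to 5 and CO mice 1 to 5 from left to right within each group, the raw count above each point, and the mean and SD (n = 5) as a bar that stops at 0. Clock and Nr1d2 lie in narrow bands (25.8 to 47.9 and 58.1 to 87.6 CPM), the Per genes rest on at most 17 counts a mouse, Arntl and Dbp are at 0 in most mice, and Tef is at 0 in all.

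The Per genes encode the inhibitors of the loop. Per1, on chromosome 11 from 69095108 to 69109965, had 9, 14, 3, 16 and 1 counts in FO mice 1 to 5 and 1, 6, 9, 9 and 9 in CO mice 1 to 5. The levels were 12.7 ± 6.94 CPM in FO and 15.9 ± 10.2 CPM in CO (SD, n = 5), with overlapping ranges. Per2, on chromosome 1 from 91415977 to 91459351, had 11, 17, 2, 8 and 1 counts in FO and 3, 0, 5, 6 and 2 in CO. Its levels were 10.3 ± 4.16 CPM in FO and 7.96 ± 7.86 CPM in CO (SD, n = 5), and the lowest and the highest mouse were both CO mice. Per3, on chromosome 4 from 150997018 to 151044707, had 3, 9, 0, 4 and 1 counts in FO and 1, 3, 2, 6 and 5 in CO. Its levels were 3.71 ± 2.53 CPM in FO and 7.97 ± 4.57 CPM in CO (SD, n = 5), with the ranges overlapping between 4.38 and 6.88 CPM.

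All 3 Per genes fell below the low-count filter, and their tests come from edgeR run on the 14161 genes that had a read in any mouse. The variance in that fit was estimated over all genes together, so its intervals do not carry each gene's own spread between mice. The log2 fold change was -0.20 for Per1 (95% interval -1.19 to 0.79), 0.69 for Per2 (-0.52 to 1.90) and -0.55 for Per3 (-1.98 to 0.87). The edgeR adjusted p was at least 0.905 for each. In the two-sided exact permutation test p was 0.595 for Per1, 0.365 for Per2 and 0.071 for Per3. The intervals allow a difference of more than 1 on the log2 scale in at least 1 direction for each of the 3 genes.

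Bhlhe40 encodes DEC1, which competes for E-boxes. It lies on chromosome 6 from 108660629 to 108666925 and passed the filter. Counts in FO mice 1 to 5 were 12, 26, 9, 11 and 7, or 13.8, 19.9, 58.1, 13.6 and 22.9 CPM. Counts in CO mice 1 to 5 were 6, 7, 6, 12 and 6, or 39.9, 37.3, 13.1, 12.6 and 7.87 CPM. The 3 mice with the highest levels, FO mouse 3, CO mouse 1 and CO mouse 2, were the 3 with the fewest counts outside Rn45s (46470, 45177 and 55639), and the part of depth in these levels was not tested. The means were 25.7 ± 18.6 CPM in FO and 22.2 ± 15.2 CPM in CO (SD, n = 5). The log2 fold change was 0.30 (standard error 0.47, 95% interval -0.69 to 1.29, edgeR adjusted p = 0.998), with 1 mouse left out it ranged from 0.01 (without CO mouse 5) and 0.02 (without FO mouse 3) to 0.46 (without FO mouse 1), 0.50 (without CO mouse 1) and 0.53 (without CO mouse 2). With library size alone as the scaling it was -0.14. The spread of Bhlhe40 between mice of a diet was the widest of the members with 10 or more counts a mouse on average, at 3.88 times the variance that counting alone gives, against 0.313 times for Clock and 0.692 times for Nr1d2.

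Nr1d2, the gene of REV-ERB beta, on chromosome 14 from 18204056 to 18239106, had the most reads of all members. FO mice 1 to 5 had 69, 113, 9, 56 and 24 counts, or 79.4, 86.4, 58.1, 69.2 and 78.6 CPM. CO mice 1 to 5 had 12, 14, 40, 70 and 47 counts, or 79.7, 74.6, 87.6, 73.5 and 61.7 CPM. The groups overlapped over nearly their whole range, with means of 74.3 ± 10.9 CPM in FO and 75.4 ± 9.50 CPM in CO (SD, n = 5). The log2 fold change was 0.02 (standard error 0.22, 95% interval -0.45 to 0.49, edgeR adjusted p = 0.998; two-sided exact permutation p = 0.849). This was the narrowest interval among the members, and it leaves out a difference of 0.5 or more on the log2 scale in either direction under this scaling. With library size alone as the scaling, the log2 fold change of Nr1d2 was -0.49, where the median of all genes moved to -0.55.

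Nr1d1, the gene of REV-ERB alpha, on chromosome 11 from 98767932 to 98775377, was read far less. FO mice 1 to 5 had 14, 13, 1, 15 and 7 counts, or 14.8 ± 6.61 CPM (SD, n = 5), and CO mice 1 to 5 had 2, 3, 1, 15 and 7 counts, or 11.3 ± 5.77 CPM. CO mouse 3 was lowest (2.19 CPM) and FO mouse 5 highest (22.9 CPM), and the groups overlapped. In the fit of all genes with any count its log2 fold change was 0.49 (95% interval -0.53 to 1.5, edgeR adjusted p = 0.938). Nr1d1 shares 263 exonic bases, 8.55% of its exon length, with Thra on the opposite strand (GENCODE vM21). The strand setting of the counting is not given, so how reads of that stretch were counted is not known.

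Dbp and Tef encode PAR bZIP factors that drive D-box output. Dbp, on chromosome 7 from 45705100 to 45710203, had 0, 3, 1, 0 and 0 counts in FO mice 1 to 5 and 0, 0, 0, 2 and 8 in CO mice 1 to 5. CO mouse 5 held 8 of the 14 reads and was the only mouse above 3 counts, so no fold change is given. Dbp shares 539 exonic bases, 18.0% of its exon length, with Sphk2 on the opposite strand. Tef, on chromosome 15 from 81802673 to 81826863, had 0 counts in all 10 mice. For 1 mouse taken alone, 0 counts allow a mean of up to 3.69 counts (95% exact Poisson interval), and the 10 mice together allow less a mouse. That limit covers counting error only. Aqp5 and the 6 globin genes were also at 0 in every mouse, and whether the counting left such rows empty was not tested. The third PAR bZIP gene, Hlf, which drives the same elements, was read in every mouse, with 240 counts in all and 41.9 ± 16.9 CPM in FO and 55.1 ± 20.4 CPM in CO (SD, n = 5; log2 fold change -0.46, 95% interval -1.18 to 0.26).

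In the FO against CO comparison 0 of the 3 members that passed the filter had an unadjusted p-value under 0.05 with edgeR, where 2.91% of the 2438 genes tested did. In the fit of all genes with any count, 0 of 9 members were called, against 4.15% of 14161 genes, and DESeq2 and limma-voom likewise called 0. DESeq2 called 2.54% of the 2438 genes and 0.975% of the 14161, and limma-voom called 117 of the 2438. In neither direction did the diet groups of a member lie apart: 0 of 10 members had groups that did not overlap, against 0.41% of the genes that passed the filter and 0.346% of those with any count. With shares of that size in the background, a count of 0 among so few genes carries little information. The median log2 fold change in the fit of all genes with any count was -0.06 over the 9 members and 0.05 over all 14161 genes, with 4 of the 9 members above 0.

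**Figure D2:**
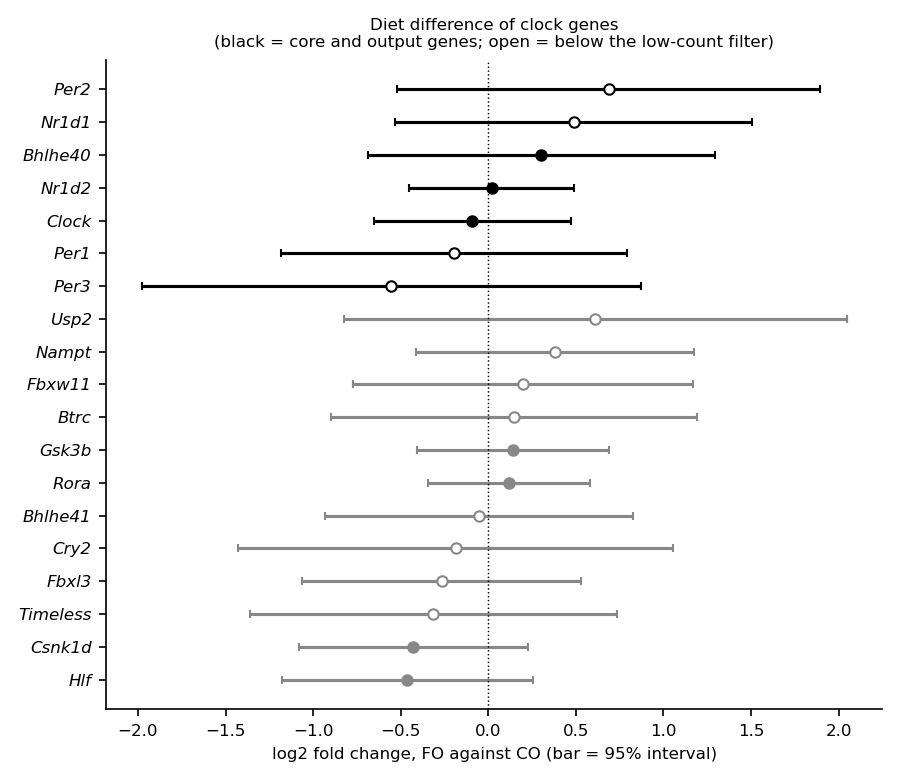
Log2 fold change of FO against CO (x axis) with its 95% interval for the 7 clock members (black) and 12 other clock genes (grey) that had more than 3 counts in at least 1 mouse of each diet. Open points are genes below the filter on low counts, tested by edgeR without that filter, and their intervals do not carry each gene's own spread between mice. All 19 intervals contain 0, and the narrowest among the black points is that of Nr1d2, from -0.45 to 0.49.

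To compare genes with each other, levels were divided by the exon length of each gene in GENCODE vM21. Nr1d2 had the highest level per length, 13.8 ± 1.79 CPM per kb over the 10 mice (SD). Bhlhe40 followed with 5.08 ± 3.42, Nr1d1 with 4.24 ± 1.99, Per1 with 2.54 ± 1.49 and Clock with 2.50 ± 0.463 CPM per kb. Per2 had 1.56 ± 1.03, Dbp 0.713 ± 1.2, Per3 0.608 ± 0.431 and Arntl 0.0793 ± 0.136 CPM per kb, and Tef was at 0. Neighbours in this order were compared within mice by a two-sided exact sign-flip permutation test over the 10 mice, with adjustment over the 9 pairs (Benjamini-Hochberg). Nr1d2 lay above Bhlhe40 in 9 of 10 mice (exact p = 0.0039, adjusted p = 0.018), and Per3 lay above Arntl in 9 of 10 mice with the same p-values. The other 7 neighbouring pairs did not differ beyond the spread between mice (exact test, adjusted p = 0.193 or more). For Arntl against Tef only 3 mice had any difference, so the exact p could not fall below the 0.25 found and decides nothing. The pairs were set by the order of these same levels. The order is that of levels per length at the hours at which these lungs were taken, and the annotation used by the authors for counting may give other lengths.

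**Figure D3:**
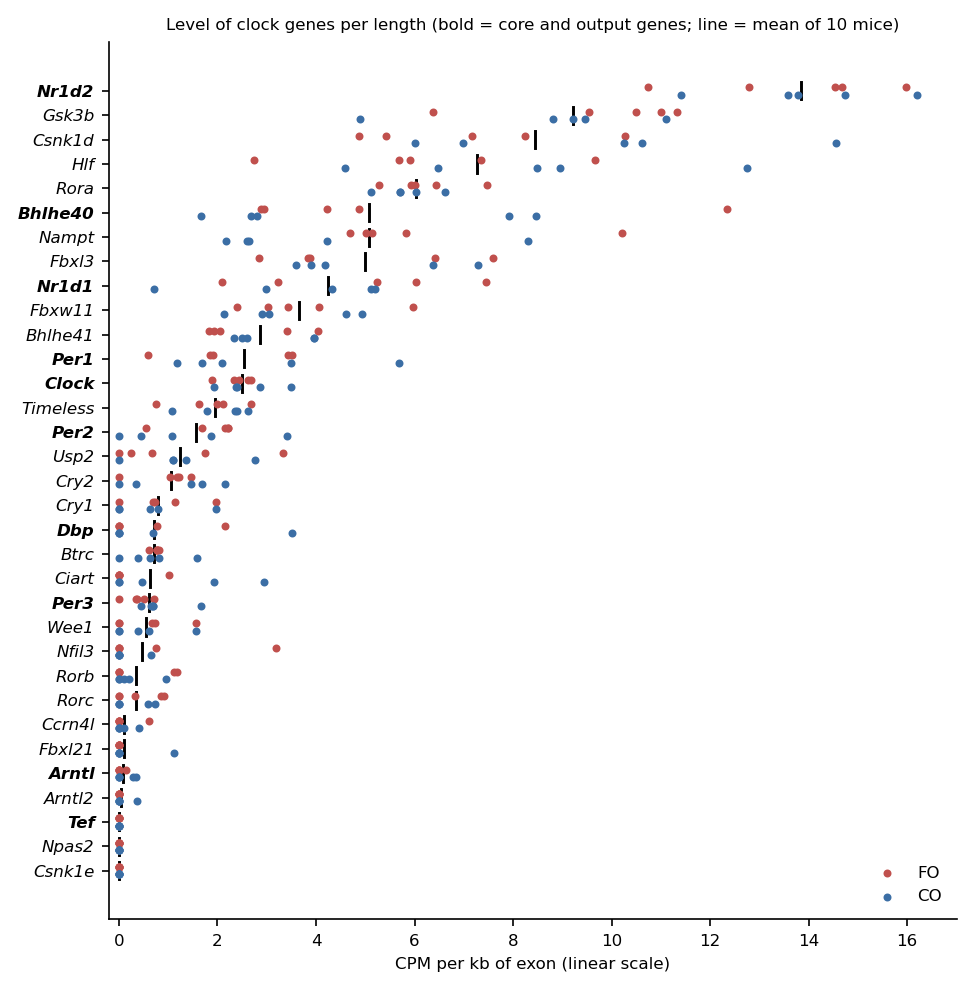
Level per length (CPM per kb of exon, linear axis) of the 10 clock members (bold) and 23 other clock genes, with a point for each FO and CO mouse and a line at the mean of the 10 mice. Nr1d2 stands at the top with 13.8 CPM per kb, and Tef, Npas2 and Csnk1e are at 0 in every mouse. Whether the counting left these rows empty was not tested.

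Since scaling between mice with so different a share of Rn45s is uncertain, the most abundant members were also compared within each mouse by the ratio of their raw counts, a measure chosen after the counts were seen. Nr1d2 had 2.19 reads for each read of Clock over all mice. The ratio in FO mice 1 to 5 was 2.38, 2.35, 2.25, 2.15 and 2.18. In CO mice 1 to 5 it was 3.00, 1.56, 2.67, 2.26 and 1.57, so that the CO mice surrounded the FO mice on both sides. The mean log2 ratio was 1.18 ± 0.06 in FO and 1.09 ± 0.44 in CO (SD, n = 5), a difference of 0.09 (two-sided exact permutation p = 0.667). Over the 10 mice the spread of the ratio was no wider than counting error alone gives, with a chi-square of 3.79 on 9 degrees of freedom (0.421 per degree). The ratio of Nr1d1 to Nr1d2 reads was 0.172 over all mice and ranged from 0.111 to 0.292 in FO and from 0.025 in CO mouse 3 (1 read of Nr1d1 to 40 of Nr1d2, 95% exact interval 0.0006 to 0.148) to 0.214 in CO. The difference in mean log2 ratio was 0.57 (two-sided exact permutation p = 0.540), and without CO mouse 3 it was -0.01.

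**Figure D4:**
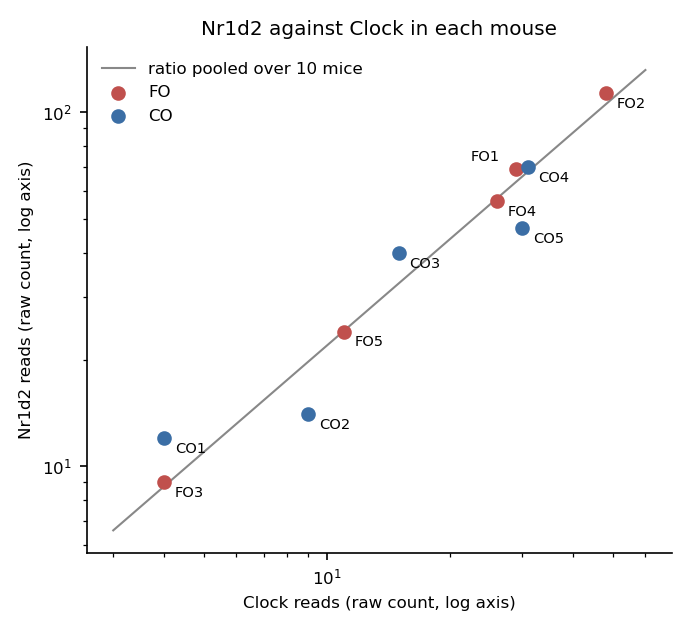
Raw reads of Nr1d2 (y) against raw reads of Clock (x) in each of the 10 mice, both on log axes, with the line of the ratio pooled over all mice, 2.19. Mice with 4 to 48 reads of Clock lie close to the line, and FO and CO mice lie along it together.

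After scaling, no correlation across mice was detected among the 3 members with a mean of at least 10 counts a mouse. On log2 CPM (prior count of 2) over 10 mice, Pearson's r was 0.16 for Clock and Nr1d2 (Spearman's rho 0.16), -0.31 for Clock and Bhlhe40 (rho -0.28) and -0.15 for Nr1d2 and Bhlhe40 (rho 0.03). Permutation p-values were 0.648, 0.391 and 0.669 for r (0.669 for each after adjustment over the 3 pairs) and 0.657, 0.427 and 0.946 for rho (0.946 for each after adjustment). Without the 2 mice farthest from the median of the first gene, r was -0.30, -0.66 and 0.02, and within diets it was 0.15, -0.28 and -0.15. The libraries share their scaling factors, and at 4 to 113 reads a mouse for Clock and Nr1d2 much of the spread between mice is counting error.

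The genes whose log2 CPM followed a member most closely over the 10 mice were sought among the other 2437 genes tested. For Clock they were Tbc1d9b (r = 0.89, rho = 0.93) and Dnmt3a (r = 0.88, rho = 0.92). For Nr1d2 they were Top1 (r = 0.90, rho = 0.82) and Hdc (r = 0.84, rho = 0.79). For Bhlhe40 they were Gabarap (r = 0.91, rho = 0.88) and Acat1 (r = 0.88, rho = 0.73). These are the highest of 2437 values for each member and are given as a description, without a test.

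Of 23 other clock genes, 21 had reads, 4 passed the filter and 0 were called in either direction by edgeR at an unadjusted p-value under 0.05, also in the fit of all genes with any count. The median log2 fold change was -0.15 over the 4 genes and 0.00 over all 2438. The highest levels were those of Gsk3b, a kinase that phosphorylates clock proteins, with 95.9 ± 19.7 CPM in FO and 85.5 ± 22.6 CPM in CO, and of Rora, which activates Arntl through the element that REV-ERB proteins occupy, with 81.3 ± 10.6 and 76.3 ± 7.11 CPM (SD, n = 5). Then came Hlf, the casein kinase gene Csnk1d, whose product marks PER proteins for decay, with 36.1 ± 11 and 48.6 ± 17.0 CPM, and Nampt, the enzyme of NAD salvage, with 31.2 ± 11.6 and 20.1 ± 12.8 CPM. Of the Cry genes, the partners of Per, Cry1 had 18 and Cry2 had 49 reads in all mice together. Csnk1e, like Tef and Npas2, had no reads. Csnk1e and Tef are the clock genes listed here that lie on chromosome 15, and whether the counting left such rows empty was not tested.

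Per1 is also a known target of the glucocorticoid receptor, and it was set beside 11 other glucocorticoid-induced genes. In the fit of all genes with any count 4 of the 11 passed the unadjusted threshold of 0.05, each with more in FO, where 4.15% of all genes passed it. In the filtered fit it was 2 of 6, against 2.91%. The 4, with values from the filtered fit for Errfi1 and Mt2, were Fkbp5 (log2 fold change 1.67, 95% interval 0.79 to 2.55), Zbtb16 (1.48, 0.63 to 2.32), Errfi1 (1.42, 0.46 to 2.39) and Mt2 (1.36, 0.54 to 2.18), beside -0.20 (-1.19 to 0.79) for Per1. None of the 4 passed adjustment over all genes (edgeR adjusted p of 0.401 or more). The two-sided exact permutation p was 0.0159 for Mt2, 0.0556 for Fkbp5, 0.0794 for Errfi1 and 0.262 for Zbtb16. For Errfi1 a single mouse held 106 of the 173 FO counts. The intervals of Fkbp5 and Zbtb16 come from the fit of all genes with any count and do not carry each gene's own spread between mice. Zbtb16 was at 6.45 and 6.55 CPM in FO mice 3 and 5, below every CO mouse. Both levels are under the floor of 3 counts, which stood for 19.4 CPM in FO mouse 3 and 9.82 CPM in FO mouse 5, so that rank is not resolved. The list was written with earlier results of these mice known and is no independent evidence, and the difference between Per1 and these genes was not tested.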

How the data were processed

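Lung RNA of 5 FO and 5 CO mice was extracted with the Maxwell simplyRNA kit, and libraries were made with TruSeq RNA v2 or riboZero; which mouse had which is not given in the sources used here. The authors aligned single-end reads to mm10 with STAR 2.4.0f1, sorted them with SAMtools 0.1.19 and deposited raw counts per gene symbol from htseq-count, without normalization. The annotation and strand setting are not given in the sources used here. Totals were 229766 to 1124963 counts a mouse, and at 3 counts or fewer a gene was taken as at the floor. Diets came from the sample titles. The FO against CO contrast was fitted over all genes with edgeR 4.0.16 in R 4.3.3 (TMM, minimum count 10, minimum total 15, quasi-likelihood test), with the study's threshold of an unadjusted p-value under 0.05 and Benjamini-Hochberg adjusted p-values beside it. Members below the filter were read from a fit of the same kind on all genes with any count. That fit gave each gene 113288 degrees of freedom, against 18.4 in the filtered fit, as its variance was estimated over all genes together. Its intervals and p-values therefore do not carry the spread of a single gene between mice. Standard errors came from the fitted weights. Alternatives used DESeq2 1.42.0 and limma 3.58.1 (voom). The members, gene lists and motifs were chosen with earlier results of these data known. The genes named are all members, other clock genes past the threshold or else the 5 with the highest mean CPM, the 2 genes most like each member tested, and at most 4 of each further list past the threshold. Npas2, Arntl2, Csnk1e, Cry1, Cry2, Thra, Sphk2, Aqp5 and Alas2 fall outside that rule and were named after their values were seen. Gene positions and start windows are those of RefSeq on GRCm38.p6.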

Additional observations from a re-analysis of the deposited data

Results flagged for a closer look

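The 9 members with reads gave 18 sets of 5 mice, 1 for each gene and diet, and each was searched for a single mouse far from the rest (gap to its neighbour over 0.71 of the range, Dixon's test). There were 4 such sets. Chance flags about 1 in 20 sets of continuous values, a rate that does not hold for counts this low: 4 mice at 0 and 1 mouse with a read always meet the rule, as for Arntl. FO mouse 1 was the only FO mouse with a read of Arntl (1.15 CPM, 1 count). CO mouse 2 had 16.0 CPM of Per3, from 3 counts, against 6.65 CPM in the next CO mouse. CO mouse 5 had 10.5 CPM of Dbp, from 8 counts, against 2.10 CPM in the next. FO mouse 3 had 58.1 CPM of Bhlhe40, from 9 counts, against 22.9 CPM in the next FO mouse.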

How the results depend on the processing

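Over 136 alternative values of the log2 fold change of 7 members, 0 passed the threshold (smallest unadjusted p = 0.123), 124 kept their direction and 12 turned it. With library size alone as the scaling, Nr1d1 was at -0.12, Nr1d2 at -0.49 and Bhlhe40 at -0.14, while Clock was at -0.60, Per1 at -0.66, Per2 at 0.17 and Per3 at -1.03, the median of all genes being -0.55. Nr1d2 was at -0.044 with limma-voom and -0.12 without FO mouse 2 and CO mouse 5, and from -0.057 to 0.086 with 1 mouse left out. Per1 ranged from -0.47 to 0.061 with 1 mouse left out, Per2 from 0.41 to 0.97, Per3 from -0.86 to -0.31, Nr1d1 from 0.25 to 0.86, Clock from -0.17 to -0.04 and Bhlhe40 from 0.01 to 0.53. The replicate block gave -0.01 for Nr1d2 (-0.00597) and called no member. Mice with the same number in both diets did not vary together (mean r = -0.12 over 5 pairs). These values show no pairing by number, but they cannot exclude that such mice were handled together. The causes were not tested.

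Genes called numbered 71, and 36 with library size alone, 587 of all with any count, 15 of 633 with 10 counts in every mouse (no member among them), 117 with limma-voom, and 51 to 179 with 1 mouse left out (179 without FO mouse 2). Members called were 0 to 1 with 1 mouse left out, the 1 being Arntl without FO mouse 1 (0 against 3 reads). Other clock genes called were 1 with library size alone (Arntl2), 1 without FO mouse 2 and CO mouse 5 (Ciart), 1 without FO mouse 3 and CO mouse 1 (Ccrn4l, a choice made after seeing the data), and 0 to 2 with 1 mouse left out (Rorb and Ciart without FO mouse 2, Ccrn4l without FO mouse 3, Rorb without CO mouse 2, Nampt without CO mouse 4, Arntl2 without CO mouse 5). Without 2 mice, r turned to -0.30 for Clock and Nr1d2 and to 0.020 for Nr1d2 and Bhlhe40. The log2 ratio difference ranged from -0.028 to 0.21 for Nr1d2 to Clock and from -0.0095 to 0.77 for Nr1d1 to Nr1d2 with 1 mouse left out. Arntl, Dbp and Tef had too few reads for a fold change.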
